A study of Danio rerio with 82 samples.

Results

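A set of 64 loci stood far higher in stage IV zebrafish (Danio rerio) oocytes than in oocytes of stages I, II and III. A locus was taken as a member when it had at least 20 FPKM in stage IV, a lower confidence bound above 0 there, and a stage IV FPKM at least 8 times the highest of stages I, II and III. FPKM counts fragments relative to transcript length in kilobases and to the size of the library, and the bounds are those given by the authors for each locus. The members are 64 of 28405 listed loci, or 0.225%. Of the 4349 loci with at least 20 FPKM and a lower bound above 0 in stage IV, 1.47% passed the 8-fold limit. Because the same 4 values chose the members, their height in stage IV describes the choice, and no test was made on it.

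The oocytes came from dissected ovaries of adult females of the wild-type Tu strain, were sorted by their morphology, and were freed of follicle cells as far as possible. The 4 groups are stage I oocytes, labelled as in G1 phase, stage II oocytes, labelled as in S phase, stage III oocytes, labelled as in prophase I, and stage IV oocytes, labelled as in metaphase I. Polyadenylated RNA of each stage was sequenced as 1 library. A stage therefore has no replicate, no p-value was computed, and "higher" and "lower" describe these libraries.

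A growing fish oocyte fills its cytoplasm with mRNA that will serve maturation, fertilisation and the first cell divisions, before the embryo transcribes its own genome. During meiotic maturation the stored mRNAs are handled selectively: some lose their poly(A) tails and become silent or decay, and others gain tails and are translated. Libraries made from polyadenylated RNA cannot tell a more abundant transcript from one that carries a longer tail, and this holds for every value below.

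The whole libraries differed in ways that bear on these values. They were alike in size: the deposited bounds correspond to at least 6260360, 6607080, 6572400 and 6201860 fragments over all loci in stages I to IV. The spread of levels over the loci was not alike. Of the 14109 loci that averaged 1 FPKM or more, 12.2% were at least 1 higher in stage IV than in every earlier stage on the log2(FPKM + 1) scale, and 36% were at least 1 lower. The median difference between stage IV and the mean of the earlier stages was -0.85 on that scale over all these loci. Scaling by the median of ratios, which centres the middle of the loci, moved this median to -0.07 and the shares to 25.6% higher and 23.0% lower.

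Most markers of follicle cells, stroma and blood, but not of liver, were lower in stage IV on the deposited scale. None of the follicle cell, blood or liver markers met the 2-fold rule for higher, except cldnd under the median of ratios. The rule for lower, met by 36% of all loci, was met by 14 of 22 follicle markers, or 63.6%. It was met by 4 of 12 liver markers, or 33.3%, and 15 of 18 blood markers, or 83.3%. Under the median of ratios 7 of the blood markers met it, or 38.9%, beside 23.0% of all loci. The summed follicle list read 4647, 2595, 4072 and 5658 FPKM in stages I to IV, of which the claudin cldnd alone made up 5441 FPKM in stage IV, while the follicle markers foxl2, fshr, lhcgr and star were listed at 0 there. Blood markers summed to 216, 122, 238 and 15.9 FPKM. Liver and plasma markers summed to 255, 32.6, 53.4 and 6.55 FPKM. Stroma and smooth muscle markers summed to 507, 259, 585 and 343 FPKM, and 13 of 19 met the rule for lower and 1, TPM1, the rule for higher. Of 20 oocyte markers, 14 met the rule for lower and 1, dazl, the rule for higher, and the oocyte list summed to 13729, 9573, 8474 and 2041 FPKM in stages I to IV. No marker of any list was a member, and the part of other cells in the members' levels was not tested. In whole oocyte samples, fewer attached cells and less RNA per cell cannot be told apart.

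The members had a median of 5.16, 7.16, 6.29 and 88.1 FPKM in stages I, II, III and IV. The medians of the 3 earlier stages were near one another, and the height of stage IV follows from the rule. Single members differed widely, between 0.490 and 92.8 FPKM in stage I. The stage IV values ran between 21.2 and 1034 FPKM, with 29 members at 100 FPKM or more and 5 at 500 FPKM or more. The fold of stage IV over the highest earlier stage had a median of 10.6 and ran between 8.05 and 43.7. It was at least 10 for 39 members and at least 16 for 11. Together the members held 0.0918%, 0.0940%, 0.0865% and 1.57% of the summed FPKM of stages I to IV.

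**Figure D1:**
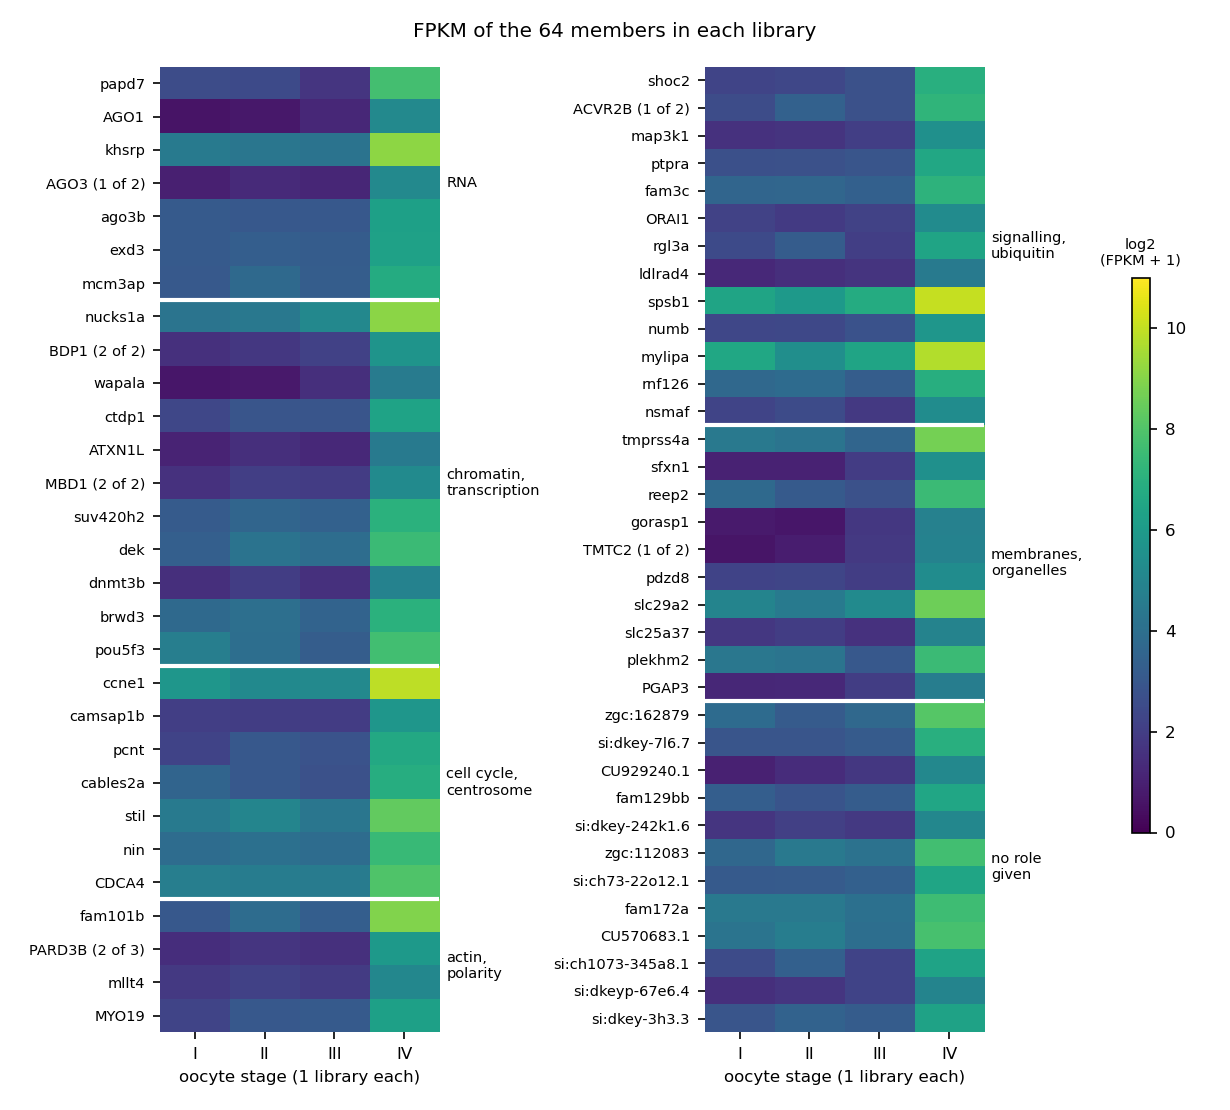
Level of each of the 64 members as log2(FPKM + 1), with 1 row per member and 1 column per oocyte stage (1 library each), grouped by the role given and ordered by fold within a group. Every row is brightest in stage IV, and spsb1 and ccne1 are the brightest there at 1034 and 953 FPKM.

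The members' earlier levels were low but measured. Each stage I value rested on at least 11 fragment equivalents, the number of counted fragments that would give the deposited bounds, and the median was 130, 149, 137 and 1699 equivalents in stages I to IV. In all 64 members the stage IV lower bound was above the upper bound of every earlier stage. The 8-fold limit on the same values favours this, so it is a description. For 41 members the stage IV lower bound was also at least 8 times the highest earlier upper bound, and the lowest such ratio of bounds was 5.42, for PGAP3. The bounds cover counting and assignment within a library and not the spread between oocytes.

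Most loci at this level were far from an 8-fold gain. Among the 4349 loci with at least 20 FPKM and a lower bound above 0, stage IV was below the highest earlier stage for 1681, between 1 and 2 times it for 1248, between 2 and 4 times for 1068, between 4 and 8 times for 288, between 8 and 16 times for 53, and at least 16 times for 11. The median fold was 1.34. The members are the upper end of a continuous distribution, as their neighbours at the limit show. Just inside the 8-fold limit were si:dkey-3h3.3 at 8.05-fold, PGAP3 at 8.14-fold and pou5f3 at 8.23-fold. Just outside it were wdhd1 at 7.93-fold, dmxl2 at 7.90-fold and fam171a1 at 7.84-fold.

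The level limit and the bound also decided some loci. The members nearest to 20 FPKM were ldlrad4 at 21.2, ATXN1L at 22.3 and wapala at 22.7 FPKM in stage IV. Under it, trioa had 19.2, mex3b 18.2 and ctnnd1 17.7 FPKM with folds of 10.6, 9.98 and 11.2. The gene runx2b, which encodes a runt-domain transcription factor, had 1.54, 2.57, 1.18 and 65.2 FPKM in stages I to IV, and stays outside because its stage IV bounds run between 0 and 156. For xrra1, with 25.8 FPKM in stage IV and 0 listed in the earlier stages, the lower bound was 0 as well.

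**Figure D2:**
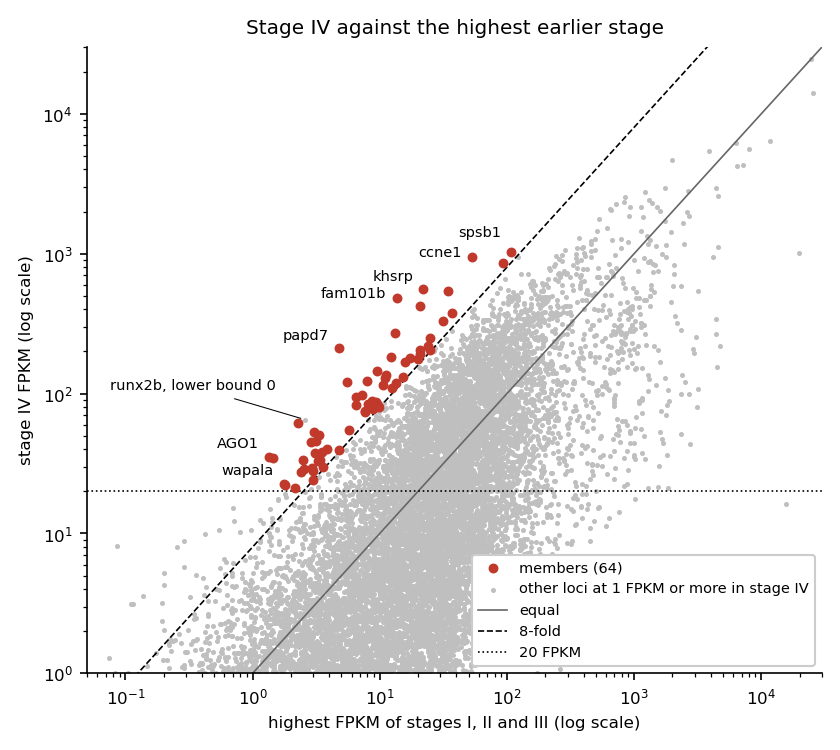
Stage IV FPKM against the highest FPKM of stages I, II and III for loci at 1 FPKM or more in stage IV (both axes logarithmic), with members in red and other loci in grey. Loci with almost no signal in any earlier stage, such as xrra1, are not drawn. Lines mark equality, the 8-fold limit and 20 FPKM, and papd7 lies farthest above the 8-fold line among the members at 43.7-fold.

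The 64 loci cover many functions, and the 52 that were given a role were sorted by it. The 7 genes of RNA tails, small RNA and RNA binding had the highest median fold, 24.0, followed by the 4 of actin, polarity and adhesion with 18.4. The median fold was 12.1 for the 11 of chromatin and transcription, 10.9 for the 10 of membranes and organelles, 10.7 for the 7 of the cell cycle and centrosome, and 10.3 for the 13 of signalling and ubiquitin ligases. The 12 loci with no role given had a median of 9.64. They include si:ch1073-345a8.1 at 8.82-fold and si:dkey-242k1.6 at 10.0-fold, which RefSeq names pard3ba and mbd1a. The groups were made after the values were seen and differ in size, so their order is a description.

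The member with the largest fold was papd7, which encodes a noncanonical poly(A) polymerase, an enzyme that adds tails to RNA outside the main cleavage and polyadenylation reaction. It lies on chromosome 19 (danRer7, chr19:28290859-28317020) and had 4.82, 4.61, 2.26 and 211 FPKM in stages I, II, III and IV. Its stage IV bounds were 200 and 221 FPKM, and the fold was 43.7. Stages I to III were all under 5 FPKM, and no bound of theirs came near stage IV.

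Of 7 other loci of related tail-adding enzymes, none met the 2-fold rule for higher on the deposited scale, 4 met that for lower and 3 neither. Of all loci 12.2% met the rule for higher and 36% that for lower, so 7 loci need not hold any that is higher. PAPD5, a close relative of papd7, had 20.6, 35.5, 8.18 and 1.40 FPKM. The mitochondrial poly(A) polymerase gene mtpap had 34.8, 45.8, 26.4 and 4.38 FPKM, and the U6 uridylyl transferase gene tut1 had 37.7, 34.7, 20.1 and 3.55 FPKM. All 3 met the rule for lower, also under both other scalings of the libraries. ZCCHC6, a terminal uridylyl transferase gene, had 14.4, 16.6, 9.25 and 3.76 FPKM and met that rule only on the deposited scale. The 3 that met neither rule were zcchc11 and both loci of papd4, of which the one with the lower level, at 1.38, 2.24, 0 and 5.03 FPKM, met the rule for higher under the median of ratios. In stage IV papd7 was the highest of the 8 loci.

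Among 47 measured genes of poly(A) tail and 3′ end processing, papd7 was the only member. The rule for higher was met by 7 and that for lower by 21, or 14.9% and 44.7%, beside 12.2% and 36% of all loci. After papd7 the largest folds in the list were 7.08 for pan3, a subunit of a deadenylase, with 12.3, 15.7, 24.5 and 174 FPKM, and 6.27 for cnot8, a catalytic subunit of the CCR4-NOT deadenylase, with 83.9, 72.7, 47.0 and 526 FPKM. The list's median difference was -0.82, near the -0.85 of all loci, and read 0.11 under the median of ratios, where all loci read -0.07.

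Argonaute proteins bind small RNAs such as microRNAs and silence the matching mRNAs, and 3 Argonaute loci were members. AGO1 (danRer7, chr16:54642280-54708191) had 0.490, 0.631, 1.35 and 35.4 FPKM in stages I to IV, a fold of 26.1. AGO3 (1 of 2) (chr16:54559833-54596672) had 0.970, 1.45, 1.30 and 34.8 FPKM, a fold of 24.0. Both genes were near the floor of detection before stage IV, with 15.8 and 31.0 fragment equivalents in stage I, and reached nearly the same level in it. On chromosome 19, ago3b (chr19:11283366-11308559) had 7.61, 7.14, 7.27 and 74.3 FPKM, a fold of 9.77.

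The fourth Argonaute locus described, ago4, fell short of the limit with 25.3, 35, 46.3 and 251 FPKM and a fold of 5.43, and was the highest of the 4 in every stage. All 4 loci are close relatives, so fragments may have been split between them, and their separate levels are uncertain to that degree. Among 15 measured genes of the Argonaute and microRNA pathway, 7 met the rule for higher and 1 that for lower. These are 46.7% and 6.67%, beside 12.2% and 36% of all loci. The counts were the same under both other scalings, but the shares of all loci were not. They read 25.6% and 23.0% under the median of ratios and 13.8% and 33.8% under the other scaling. Of the 7, 3 are members, which meet the rule for higher by their choice. Besides the 4 Argonautes the 7 held dgcr8, the partner of Drosha, with 40.4, 36.9, 52.8 and 269 FPKM, tarbp2, a partner of Dicer, with 50.1, 37.6, 55.7 and 177 FPKM, and TNRC6A, a GW182 silencing protein, with 12.9, 17.5, 11.8 and 49.3 FPKM. The Dicer gene dicer1 itself read 7.49, 13.4, 8.32 and 7.28 FPKM.

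Of the RNA-binding members, khsrp encodes a KH-domain protein that binds AU-rich elements and takes part in mRNA decay and microRNA processing. It had 22.1, 18.7, 17.1 and 555 FPKM, with stage IV bounds of 531 and 579 and a fold of 25.2. Its relatives fubp1 and fubp3 had folds of 2.32 and 2.93. In the list of 50 RNA-binding and hnRNP genes khsrp was the only member. The rule for higher was met by 19 and that for lower by 7, or 38% and 14%, beside 12.2% and 36% of all loci. The next largest fold in the list was 5.90, for the germ cell RNA-binding gene dazl. Members beyond the naming rule, here and in the next paragraphs, complete their role groups and were chosen after their values were seen. Of these, exd3, related to a C. elegans exonuclease, had 7.76, 8.80, 8.08 and 77.2 FPKM, and mcm3ap, a scaffold of mRNA export, had 7.53, 12.4, 8.43 and 109 FPKM.

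Chromatin and transcription genes made up 11 members. The most abundant was nucks1a, a nuclear phosphoprotein linked to DNA repair, with 17.7, 20.1, 34.5 and 539 FPKM and a fold of 15.6. BDP1 (2 of 2), a subunit of the TFIIIB factor that recruits RNA polymerase III, had 1.92, 2.44, 3.31 and 50.8 FPKM. The gene ctdp1 encodes a phosphatase of the RNA polymerase II tail and had 4.14, 6.55, 6.49 and 83.5 FPKM. Of 8 other genes of phosphatases of that tail or related to them, 3 met the rule for higher and 4 that for lower. Of all loci 12.2% and 36% met these rules. Of the 4, ctdspla met neither rule under the median of ratios. The highest fold was 4.87 for ctdspl2b, with 8.36, 10.8, 5.23 and 52.6 FPKM, and the lowest stage IV level was that of ctdsp1, with 16.8, 28.8, 19.4 and 0.983 FPKM. The call of ctdsp1 for lower held under every scaling used. That of ctdspl2b for higher could not be lost, because both other scalings raise stage IV relative to stages I to III.

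Genes of chromatin marks were among them. The histone H4 lysine 20 methyltransferase gene suv420h2, now named kmt5c in RefSeq, had 8.05, 11, 9.63 and 130 FPKM, a fold of 11.8. Its relative suv420h1 had 36.7, 54.5, 30.5 and 4.85 FPKM, so that the order of the pair turned round between stage III and stage IV. Scaling a library cannot change that order. The relative suv420h1 met the rule for lower under every scaling used. MBD1 (2 of 2), named for a methyl-CpG binding protein, had 1.92, 3.10, 2.91 and 37.6 FPKM. Another locus of that name, mbd1 on chromosome 11, had 88.2, 121, 50.0 and 118 FPKM, above the member in every stage, and met neither rule. Of 7 other methyl-CpG binding loci, mbd1 among them, 0 met the rule for higher and 1 that for lower on the deposited scale, beside 12.2% and 36% of all loci. The DNA methyltransferase gene dnmt3b had 1.77, 3.01, 1.91 and 28.1 FPKM, low beside dnmt1 in stage IV, at 1095 FPKM. The list of 52 H3 lysine methyltransferases and demethylases held no member, with 14 genes meeting the rule for higher and 10 that for lower, or 26.9% and 19.2%. The list of 55 remodelers, deacetylases and acetyltransferases held none either, with 17 and 11, or 30.9% and 20%. Of all loci 12.2% and 36% met these rules. Members are 0.454% of all loci averaging 1 FPKM or more, so lists of this size need not hold any.

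The remaining chromatin members were a cohesin factor and regulators of transcription. The cohesin release factor wapala had 0.605, 0.682, 1.76 and 22.7 FPKM, a fold of 12.9. ATXN1L, a relative of the corepressor ataxin 1, had 1.13, 1.8, 1.42 and 22.3 FPKM. The chromatin protein gene dek had 9.02, 17.2, 14.1 and 178 FPKM and the bromodomain gene brwd3 had 12.5, 15.1, 10.3 and 131 FPKM. Among 44 maternal transcription factors only pou5f3, one of the activators of the zygotic genome, was a member, with 24.7, 14.8, 8.61 and 203 FPKM. It was the only one of these 5 genes that was lower in each successive stage before stage IV. In that list 10 genes met the rule for higher and 9 that for lower, or 22.7% and 20.5%, beside 12.2% and 36% of all loci. The list's median difference of -0.24 read 0.64 under the median of ratios.

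Cell cycle and centrosome genes reached the highest median stage IV level of the role groups, 167 FPKM. The cyclin E gene ccne1 (danRer7, chr7:47629355-47639396) drives entry into DNA replication with its kinase partner and is among the most abundant members. It had 53.5, 35.9, 34.9 and 953 FPKM, with stage IV bounds of 917 and 988 and a fold of 17.8. The other cyclin E gene, ccne2, had 1.63, 2.16, 1.93 and 0.344 FPKM, so ccne1 was far above it in every stage. Of 59 cyclins, kinases and anaphase regulators ccne1 was the only member. The rule for higher was met by 9 and that for lower by 23, or 15.3% and 39.0%, near the 12.2% and 36% of all loci. Their median difference was -0.83, and -0.10 under the median of ratios.

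Centrioles and centrosomes organise microtubules, and 4 members belong to them or to microtubule ends. The scaffold gene pcnt had 3.64, 7.19, 6.09 and 98.0 FPKM, the centriole assembly gene stil 21.2, 31.3, 18.8 and 331 FPKM, and the anchoring protein gene nin 13.7, 15.8, 13.7 and 167 FPKM. The microtubule minus-end binding gene camsap1b had 3.06, 2.94, 2.86 and 53.4 FPKM, and its 3 earlier values lay within their bounds of each other. The folds were 13.6 for pcnt, 10.6 for both stil and nin, and 17.4 for camsap1b.

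Not all centriole genes went with them. Of 10 other centriole, centrosome and minus-end loci, 4 met the rule for higher, 3 that for lower and 2 neither, and 1 averaged under 1 FPKM. Of all loci 12.2% met the rule for higher and 36% that for lower. The kinase gene plk4, which starts centriole duplication, had 10.5, 19.5, 12.2 and 0.745 FPKM, and CDK5RAP2, a recruiter of gamma-tubulin, had 7.96, 12.5, 6.11 and 1.14 FPKM. Both met the rule for lower under every scaling used. The centriole gene cep152, whose product binds that of plk4, had 12.4, 19.5, 20.2 and 82.0 FPKM, a fold of 4.07. Of 61 centrosome and spindle genes, 25 met the rule for higher and 8 that for lower, or 41.0% and 13.1%, beside 12.2% and 36% of all loci. Their median difference was 1.12, and 2.05 under the median of ratios. The other 2 members of the group were cables2a, related to a regulator of cyclin-dependent kinases, with 10.6, 7.09, 5.54 and 114 FPKM, and CDCA4, a gene linked to cell division, with 25, 23.4, 23.1 and 248 FPKM.

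**Figure D3:**
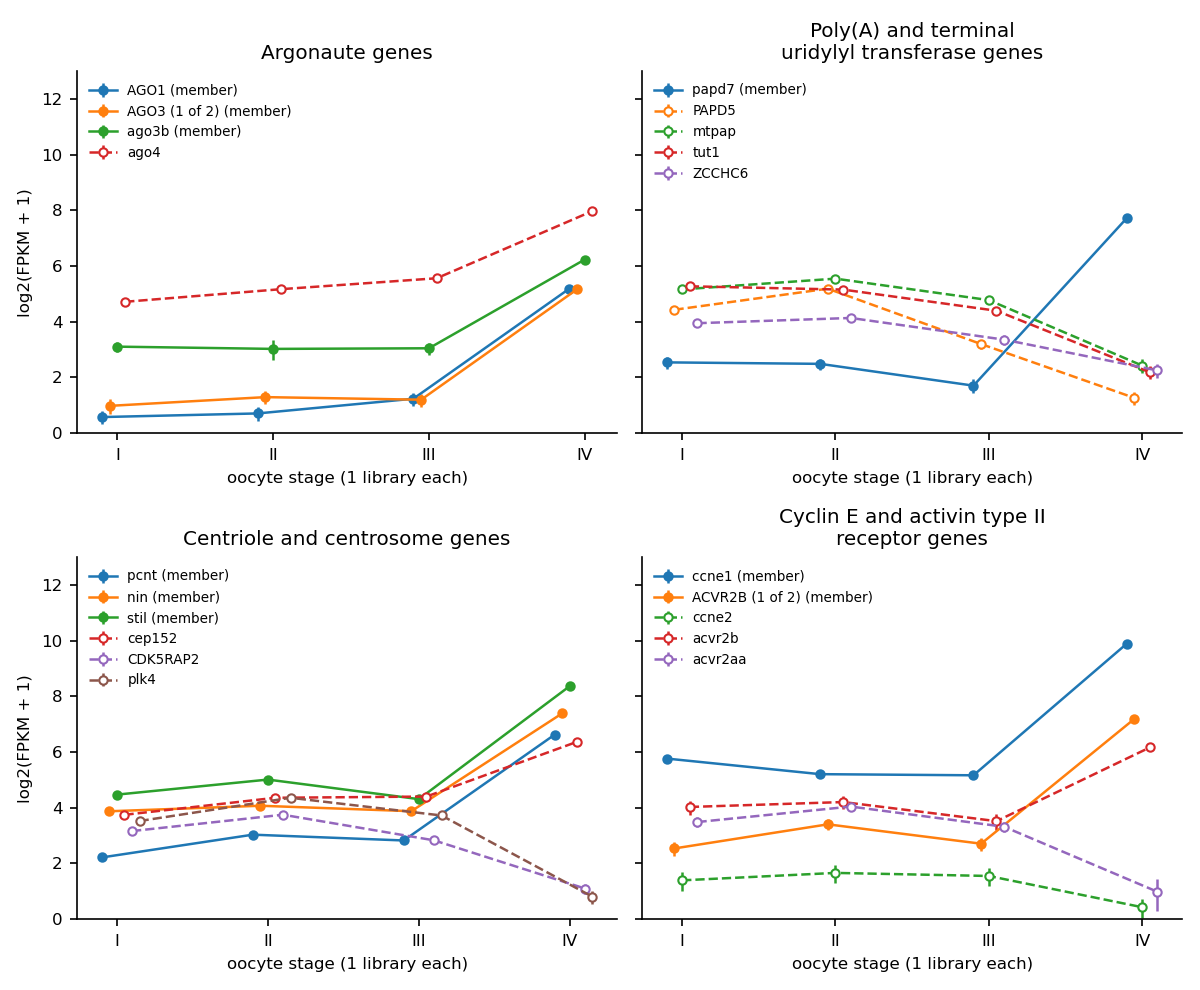
Levels as log2(FPKM + 1) by oocyte stage (1 library each) in 4 sets of related genes, with filled points and solid lines for members, open points and dashed lines for other genes, and bars for the deposited FPKM bounds. In stage IV papd7 lies above its relatives at 211 FPKM, the 4 Argonaute genes all lie above their earlier stages, and plk4, CDK5RAP2 and acvr2aa lie below theirs.

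The second largest fold belonged to fam101b, now named rflnb in RefSeq, which encodes a refilin, a protein that binds filamin and arranges actin filaments into bundles. It lies at chr15:24449580-24453227 in danRer7, the shortest member at 3.65 kb, and had 7.18, 13.6, 8.82 and 481 FPKM, a fold of 35.3. PARD3B (2 of 3), named for a relative of the polarity scaffold PAR-3, had 1.70, 2.28, 1.87 and 61.4 FPKM, a fold of 27.0. These were the members among 69 actin and polarity genes. The rule for higher was met by 12 and that for lower by 17, or 17.4% and 24.6%, beside 12.2% and 36% of all loci. The list's median difference of -0.30 read 0.61 under the median of ratios. The other members of the group were mllt4, the junction protein afadin, with 2.53, 3.36, 2.72 and 33.3 FPKM, and MYO19, a mitochondrial myosin, with 3.73, 7.24, 7.62 and 74.6 FPKM. MYO19 rested on 11 fragment equivalents in stage I, the fewest of the 64.

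Signalling members included receptors, scaffolds and enzymes. ACVR2B (1 of 2), a type II receptor for activins and related ligands, had 4.81, 9.59, 5.54 and 146 FPKM, a fold of 15.2. Its relative acvr2b had 15.3, 17.4, 10.5 and 70.9 FPKM, a fold of 4.06, acvr2ab had 6.12, 13.1, 5.37 and 19.1 FPKM and met the rule for higher only under the median of ratios, and acvr2aa had 10.2, 15.5, 8.96 and 0.974 FPKM and met the rule for lower under every scaling used. Of 47 genes of TGF-beta, activin and BMP signalling 8 met the rule for higher and 14 that for lower, or 17.0% and 29.8%, beside 12.2% and 36% of all loci. The list's median difference was -1.0, and read 0.53 among its genes averaging 10 FPKM or more. The inhibitor of that pathway ldlrad4, not in the list, had 1.43, 1.77, 2.17 and 21.2 FPKM.

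In the RAS and MAP kinase list of 62 genes, shoc2 and map3k1 were members. The rule for higher was met by 10 genes and that for lower by 19, or 16.1% and 30.6%, beside 12.2% and 36% of all loci. The list's median difference was -0.50 and read 0.27 under the median of ratios. The gene shoc2, a scaffold that promotes RAF activation by RAS, had 3.76, 4.03, 5.57 and 121 FPKM, a fold of 21.7. The kinase gene map3k1 had 1.92, 2.1, 3.13 and 45.5 FPKM, a fold of 14.6. The receptor tyrosine phosphatase gene ptpra had 5.50, 5.63, 6.52 and 94.7 FPKM. The 3 genes shared a highest earlier value in stage III.

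The most abundant member was spsb1, a SOCS-box protein that brings substrates to a ubiquitin ligase, with 84.2, 60.2, 109 and 1034 FPKM and a fold of 9.53. The ligase gene mylipa, whose mammalian counterpart targets the LDL receptor, followed among the ubiquitin genes with 92.8, 42.5, 84.1 and 851 FPKM and a fold of 9.17. Both were well measured in every stage, with at least 1151 fragment equivalents, so that their folds rest on more fragments than most. The smaller ligase gene rnf126 had 12.1, 13.5, 8.42 and 119 FPKM. None of these 3 is in the list of 92 ubiquitin ligases and deubiquitinases, in which no gene was a member. The rule for higher was met by 9 and that for lower by 35, or 9.78% and 38.0%, near the 12.2% and 36% of all loci. The list's median difference of -0.82 read 0.066 under the median of ratios.

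The other 5 signalling members had between 38.4 and 136 FPKM in stage IV. The secreted protein gene fam3c had 11.2, 11.3, 9.36 and 136 FPKM, and ORAI1, named for the channel of store-operated calcium entry, had 3.55, 2.67, 3.49 and 38.4 FPKM. The Notch inhibitor gene numb had 4.07, 4.21, 5.77 and 54.7 FPKM, the Ral exchange factor gene rgl3a 4.46, 8.15, 3.07 and 84.1 FPKM, and the sphingomyelinase-linked adaptor gene nsmaf 3.72, 4.78, 2.55 and 39.3 FPKM. Their folds lay between 8.23 for nsmaf and 12.0 for fam3c.

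Membrane and organelle genes were led by tmprss4a, a transmembrane serine protease, with 20.7, 17.6, 11 and 420 FPKM and a fold of 20.3. The mitochondrial serine carrier gene sfxn1 had 1.05, 1.08, 2.89 and 45.4 FPKM, a fold of 15.7. The related sfxn2 had 31.6, 45.8, 32.5 and 1.43 FPKM and sfxn4 had 16.5, 14, 18.4 and 1.40 FPKM, both lower under every scaling used. By these values sfxn1 was below both in stages I to III and above both in stage IV. A further sideroflexin gene, sfxn3, had 11.8, 23.1, 32.4 and 52.0 FPKM, above sfxn1 in every stage, and met the rule for higher only under the median of ratios. The endoplasmic reticulum shaping gene reep2 had 12.4, 7.70, 5.53 and 182 FPKM. The nucleoside transporter gene slc29a2 had 29.8, 21.8, 37.2 and 378 FPKM, but its locus overlaps 8 other listed loci, and whether strand was used to assign fragments is not known here.

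The remaining 6 of this group had between 24.2 and 177 FPKM in stage IV. The Golgi stacking gene gorasp1 had 0.761, 0.588, 2.41 and 27.6 FPKM and TMTC2 (1 of 2), of the endoplasmic reticulum, 0.550, 0.820, 2.55 and 28.8 FPKM. Both stood higher in stage III than in stages I and II and far higher in stage IV. The lysosome-to-kinesin adaptor gene plekhm2 had 19.8, 17.7, 7.13 and 177 FPKM, with its lowest value in stage III. The mitochondrial iron carrier gene slc25a37, the membrane contact gene pdzd8 and the GPI-anchor remodelling gene PGAP3 had folds of 9.86, 10.4 and 8.14.

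Of the 12 loci with no role given, zgc:162879, now named rasef2 in RefSeq, had the largest fold, 20.5, with 13.3, 8.01, 12.3 and 273 FPKM. The 30 largest folds also held si:dkey-7l6.7, with 6.5, 6.53, 7.93 and 122 FPKM, and CU929240.1, with 1.02, 1.65, 2.49 and 33.8 FPKM. The stage IV levels of the 12 ran between 29.8 and 273 FPKM. RefSeq symbols or synonyms matched 48 of the 64 members, each protein coding, and 8 of the 48 under a changed name.

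A gene duplicated in fishes often persists as a pair, and names allowed 13 partner loci to be set beside 11 members. None of the 13 was a member. Of all loci averaging 1 FPKM or more, 12.2% met the rule for higher and 36% that for lower. Fragments of copies that are nearly identical may have been split between them, which limits how far their levels can be told apart. The rule for higher was met by 4: camsap1a at 5.69-fold, fam129ba, the partner of fam129bb, at 3.98-fold, wapalb at 3.21-fold and tmprss4b at 2.48-fold. The rule for lower was met by 2, namely ptprb, at 23.7, 29.3, 28.1 and 2.65 FPKM, and the smaller of 2 loci named BDP1 (1 of 2), at 14.3, 8.82, 21.6 and 0.110 FPKM. That locus lies wholly inside the larger of the 2, so it is not a separate copy. The names ptpra and ptprb mark separate receptors and not duplicates of 1 gene. Whether the other pairs, matched by name only, are duplicates was not tested. For 4 partners, fam101a, cables2b, mylipb and PARD3B (3 of 3), the mean was under 1 FPKM. The 3 others met neither rule: nucks1b at 18.0, 26.3, 41.2 and 76.0 FPKM, PARD3B (1 of 3) at 5.43, 5.53, 12.0 and 9.20 FPKM, and the larger locus of BDP1 (1 of 2) at 25.8, 22.7, 25.8 and 30.1 FPKM. Under the median of ratios nucks1b and that BDP1 locus met the rule for higher, and nucks1b did so under the scaling by nuclear loci as well.

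The pairs differed in where the earlier transcripts lay. In stage I wapala had 0.605 FPKM, against 22.6 for wapalb, and in stage IV 22.7, against 136, so that the member's listed level stayed below its partner's. For tmprss4a and tmprss4b stage I read 20.7 and 157 FPKM, and stage IV 420 and 437 FPKM, at which the listed levels were nearly equal. For nucks1a and nucks1b stage I read 17.7 and 18.0 FPKM and stage IV 539 and 76.0 FPKM.

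**Figure D4:**
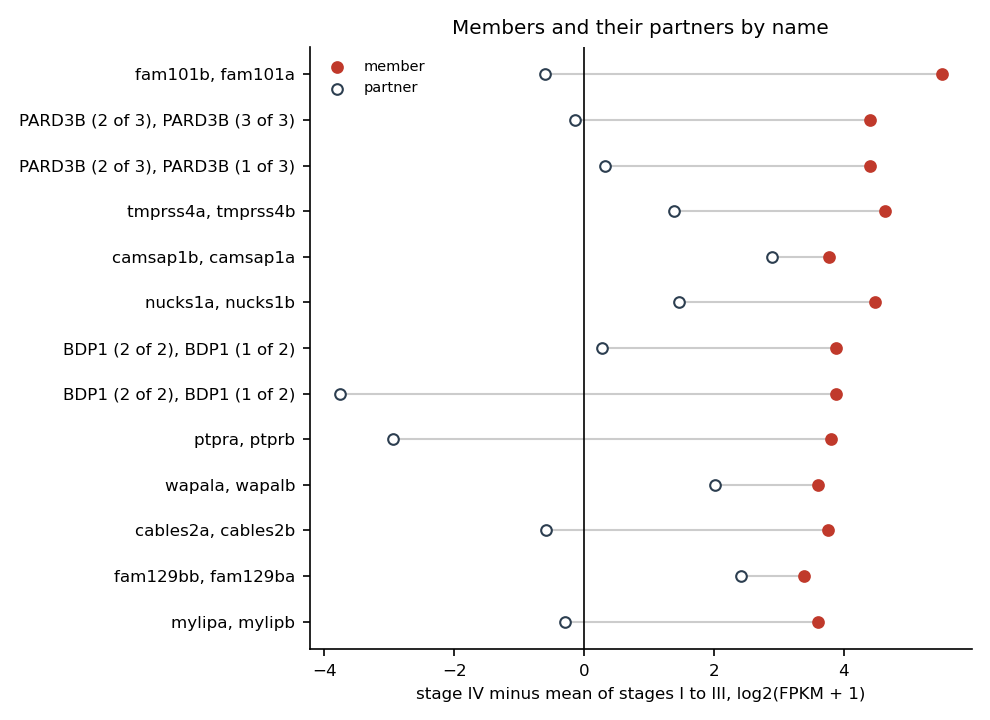
Difference between stage IV and the mean of stages I to III, in log2(FPKM + 1), for each member (red) and its partner by name (open), 1 pair per row. In these 13 pairs the member, chosen for its gain in stage IV, lies to the right of its partner, and the partners run between -3.76 and 2.90.

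Across the 13 pathway lists, 15 members were found, each in 1 list. The lists were chosen with earlier results of these data known and their counts are a description. The share meeting the rule for higher was 46.7% for the Argonaute and microRNA list, 41.0% for centrosome and spindle and 38.0% for RNA-binding and hnRNP proteins, against 12.2% of all loci. Members meet this rule by their choice. They are 3 of the 7 such genes in the Argonaute list, 2 of 25 in the centrosome list and 1 of 19 in the RNA-binding list. The share was 9.78% for ubiquitin ligases and 14.9% for poly(A) and 3′ end processing, near the share of all loci. In DNA replication and repair nucks1a was the only member of 92 genes. The rule for higher was met by 19 and that for lower by 28, or 20.7% and 30.4%, beside 12.2% and 36% of all loci.

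**Figure D5:**
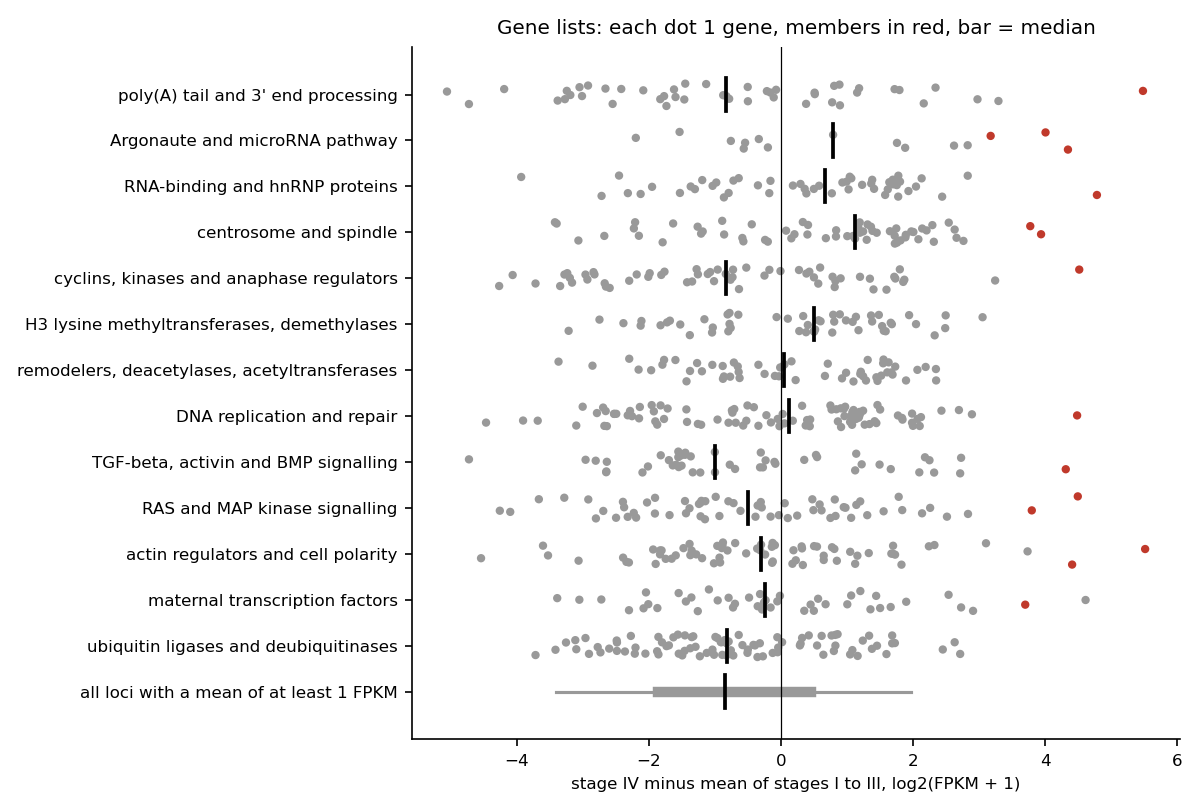
Difference between stage IV and the mean of stages I to III, in log2(FPKM + 1), for each measured gene of 13 lists (dots, members in red) with the list median (black bar). The bottom row gives the median and the 25th to 75th (thick) and 5th to 95th (thin) percentiles of all loci averaging 1 FPKM or more. The medians run between -1.0 for TGF-beta signalling and 1.12 for centrosome and spindle. The members lie at the right end of their lists, which their choice by the same values favours.

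The course of the members before stage IV was not part of the rule, apart from the height of the maximum. Their highest earlier value was in stage I for 15, stage II for 29 and stage III for 20, or 23.4%, 45.3% and 31.3%. For the 4285 other loci that passed the same stage IV floor and bound, these shares were 16.8%, 40.7% and 42.5%. These loci were not matched on level, and their median in stage IV was 62.5 FPKM, against 88.1 for the members. The highest and lowest of the 3 earlier stages differed by less than 2-fold in 48 members, or 75%, against 82.9% of the other loci, and the median range was 1.64-fold against 1.53-fold. Between stage I and stage III, 1 member was at least 1 higher in stage III on the log2(FPKM + 1) scale, or 1.56%, against 6.23% of the other loci, and 3 were at least 1 lower, or 4.69%, against 4.81%. Adding 1 FPKM shrinks such differences at low levels, and 24 members were under 5 FPKM in each of stages I to III. AGO1, at 0.490 and 1.35 FPKM in stages I and III, and gorasp1, at 0.761 and 2.41 FPKM, thus did not count as higher. Nor did papd7, at 4.82 and 2.26 FPKM, count as lower. A locus whose earlier maximum is high passes the rule less easily, so these shares are partly bound to it and were not tested.

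The members spanned longer stretches of the genome than the other loci. Their median span was 26.6 kb, against 13.6 kb, and 28.1% spanned at least 50 kb, against 11.8%. The longest was fam172a, now named arb2a in RefSeq, at 271 kb, with 20.8, 20.8, 15.4 and 191 FPKM. Span includes introns, and transcript lengths were not analysed here. Another listed locus overlapped 7 members, or 10.9%, against 15.1% of the other loci.

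Members lay on 23 of 25 chromosomes, with at most 6 on any, and 4 pairs lay within 250 kb of each other. AGO3 (1 of 2) and AGO1 lie 45.6 kb apart on chromosome 16 with no listed locus between them. PARD3B (2 of 3) (chr1:4670972-4855754) and si:ch1073-345a8.1 (chr1:4932096-4949410) lie 76.3 kb apart with none between them. RefSeq names the second of these pard3ba, so whether both are pieces of 1 gene was not tested. On chromosome 8, si:dkey-242k1.6, which RefSeq names mbd1a, lies 162 kb before MBD1 (2 of 2), and the same applies, though other loci lie between them.

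The levels within these pairs were alike in some and not in others. The chromosome 1 pair had 61.4 and 83.5 FPKM in stage IV with folds of 27.0 and 8.82, and the chromosome 8 pair, in the order named, 32.9 and 37.6 FPKM with folds of 10.0 and 12.1. On chromosome 2, CU570683.1 and rnf126 lie 57.4 kb apart with 218 and 119 FPKM in stage IV. Between them twsg1a had 10.7, 7.42, 4.18 and 2.99 FPKM. In the chromosome 8 pair the locus next to si:dkey-242k1.6, cxxc1l, had 16.4, 21.5, 23.7 and 58.5 FPKM and met the rule for higher. Farther on in that pair tfe3a, at 5.18, 2.81, 5.86 and 0.737 FPKM, met the rule for lower. The other loci there met neither rule or averaged under 1 FPKM. Of the loci between the members of these pairs, only cxxc1l thus met the rule for higher.

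The next listed loci on either side of each member were read as well. Of 78 such neighbours averaging 1 FPKM or more, 16 met the rule for higher and 24 that for lower, or 20.5% and 30.8%, beside 12.2% and 36% of all loci. Of the 16, 4 are members themselves, and without members 12 of 74, or 16.2%, met the rule for higher. That share is near the 12.2% of all loci, most of which do not meet the rule either. The rule asks for a 2-fold step and not for the 8-fold limit of the members.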

How the data were processed

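Poly(A) RNA of zebrafish oocytes of stages I to IV was sequenced, 1 library per stage, in dUTP-stranded libraries per the labels' protocols. The authors deposited FPKM per locus with its bounds, per the file headers. The danRer7 build, Bismark, Bowtie2 2.2.2, STAR 2.5.3a and Trim Galore are named, without roles, per the submitters' processing notes. Which program computed FPKM is not given in the sources used. No read counts were used.

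Tables were joined on symbol and locus, 1 was added to starts, and Python 3.11.15 with pandas 2.3.3 was used. Fragment equivalents are (2 FPKM divided by FPKM minus its lower bound) squared. The selection was checked on simulated data. Loci averaging 1 FPKM or more were called higher, or lower, when log2(FPKM + 1) in stage IV was at least 1 above the highest, or below the lowest, of stages I to III. A list median is the difference between stage IV and the mean of stages I to III on that scale, which understates low genes. Of repeated symbols, a list took the locus with the highest mean. Alternatives were other limits, pseudocounts, filters, 2 scalings and stages left out. The members and lists were chosen with earlier results of these data known. Named were the 30 largest folds, the 10 highest levels, members in a list, loci nearest the limits and partners. RefSeq names come from the GRCz12tu assembly, and no sequences were read. Other samples of the series were not analysed here.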

Additional observations from a re-analysis of the deposited data

How the results depend on the processing

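With 1 library per stage, no result has a replicate check, and the bounds measure counting and assignment only. The number of members, 64, became 352 and 11 with the 8-fold limit at 4 and 16, 24 with 5 FPKM added before the ratio, 41 by the deposited bounds, 374 under the median of ratios and 104 without stage III. It lay between 47 and 89 under the other limits, scalings and stages left out, and was 60 and 57, in alternatives added after the data were seen, with close members counted once and without overlapping ones. Leaving out an earlier stage, or raising stage IV as the median of ratios does, cannot remove a member, so those settings only add loci. The members' median fold of 10.6 read 6.80 with 5 FPKM added and 21.2 under the median of ratios. Their share of stage IV FPKM was 1.72% without mitochondrially encoded loci. Of 70 alternative list medians, 47 stayed within the range their bounds allow, 17 left it and 6 changed sign: under the median of ratios poly(A) and 3′ end processing read 0.11, RAS and MAP kinase signalling 0.27, actin and polarity 0.61, maternal transcription factors 0.64 and ubiquitin ligases 0.066, and among genes averaging 10 FPKM or more TGF-beta signalling read 0.53. For the median of ratios the upward shift follows from its construction, which raised stage IV relative to stages I to III. Whether a list changed sign depended on its own values. Under that scaling cyclins, kinases and anaphase regulators stayed negative at -0.10 and TGF-beta signalling at -0.52. No paired analysis was possible because each stage has 1 library.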
